A study of Homo sapiens with 8 samples.

Results

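The 39 genes described here make, desaturate, elongate, activate and burn fatty acids. They were listed by name and matched to the Ensembl identifiers of the count files through GENCODE release 29. The rule used no expression value, though the list was drawn up with earlier results of these data known. All 39 of 39 were found among the 58735 gene identifiers in the files. By role, 13 genes form the synthesis arm (acetyl-CoA supply, palmitate synthesis, desaturation and elongation), 19 form the oxidation arm (carnitine shuttle, mitochondrial beta-oxidation and its electron carriers, and the peroxisomal thiolase), and 7 belong to neither (4 acyl-CoA synthetases, malonyl-CoA decarboxylase and 2 nuclear receptors).

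RNA came from MOLM-13, an established human acute myeloid leukemia cell line, in a study of acquired resistance to the alkylating drug busulfan. Of the 8 labelled samples, 4 libraries were used: the untreated parental cells (the library labelled replicate 2) and cells after course 1, course 3 or course 5 of the vehicle DMSO, prepared at 1% alongside the drug-treated cells. None of these 4 cultures received busulfan, which the study gave for 6 h at 25 to 200 µM. Each state is 1 library with no replicate at its own course. Parental cells were kept to 20 passages or fewer, per the labels, and the passage of the DMSO cultures is not stated there, so passage, time in culture and DMSO cannot be told apart.

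Libraries held 44795976 to 56825811 gene counts. The share of reads aligned to several places was 21.33% in course 5 and 13.86% to 15.39% in the others. Several defining myeloid genes were high, but not all of those listed. FLT3 stood at 392 to 617 CPM (gene counts relative to library size) and MPO, the neutrophil peroxidase gene, at 336 to 932 CPM. CSF1R, CD68 and ITGAM were far lower, with means of 39.96, 15.45 and 12.63 CPM over the 4 libraries. All 10 myeloid markers summed to 2900 CPM in the parental library and to 3820, 3619 and 3036 CPM in courses 1, 3 and 5. This sum hides differences between markers. The log2 ratio of course 5 to course 1 was -1.502 for CSF1R and -1.474 for MPO. It was above 0 only for CEBPA (0.252) and FLT3 (0.052). Erythroid and adipocyte markers summed to at most 0.163 CPM in any library, and ADIPOQ, LEP, FABP4 and ALAS2 were at 0 counts in all 4. The lymphoid sum (52.1 to 105 CPM) was mostly NKG7, and the stromal sum (132 to 184 CPM) was mostly PECAM1. The epithelial sum, from KRT8 and KRT18, was 40.7, 20.9, 12.6 and 10.7 CPM in the parental library and courses 1, 3 and 5, and its part in the results was not tested.

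Fatty acid synthesis starts from citrate exported to the cytosol. It is cleaved to acetyl-CoA, carboxylated to malonyl-CoA and built into palmitate, which desaturases and elongases then modify. Oxidation runs the other way: acyl-CoA enters mitochondria as acylcarnitine, is shortened by rounds of beta-oxidation and passes electrons to the respiratory chain, and malonyl-CoA blocks the entry step. Leukemia cells are known to use both routes.

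Between the parental cells and the DMSO cultures, the lowest ratios in this set were those of the fatty acid desaturase genes FADS2 and FADS1. FADS2 was lower in each later library, down to 6.32 CPM in course 5 from 47.7 CPM in the parental cells. FADS1 was about equally low in all 3 DMSO libraries. The median of the oxidation genes was within 0.12 log2 units of the parental level in each course, while that of the synthesis arm was 0.34 to 0.53 log2 units below it. No member passed the test across all genes. All levels below are CPM on library sizes scaled by the trimmed mean of M-values (TMM), given in the order parental, course 1, course 3, course 5. In bulk RNA, fewer cells expressing a gene and less RNA per cell cannot be told apart.

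A member was counted as apart between 2 libraries when its mean was at least 5 CPM, its CPM differed at least 2-fold and the exact 95% counting interval excluded a ratio of 1. These intervals cover counting error only. Of the 39 members, 36 reached a mean of 5 CPM; ACACA, ELOVL7 and ECI2 did not, and ECI2 was the only one of these at 1 CPM or more. In course 1, ACACB was apart above the parental library (1 of 36, against 3.70% of 10710 genes at this level) and FADS1 and ELOVL6 below it (2 of 36, against 4.19%). With DESeq2 size factors ELOVL6 was just under 2-fold, at -0.998. In course 3, ACACB was above (background 2.23%) and FADS1 and FADS2 were below (background 2.34%). In course 5, no member was above (background 2.96%), and FADS1 and FADS2 were below (background 4.92%). These counts, of 0 to 2 members in a direction, were near the background shares.

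**Figure D1:**
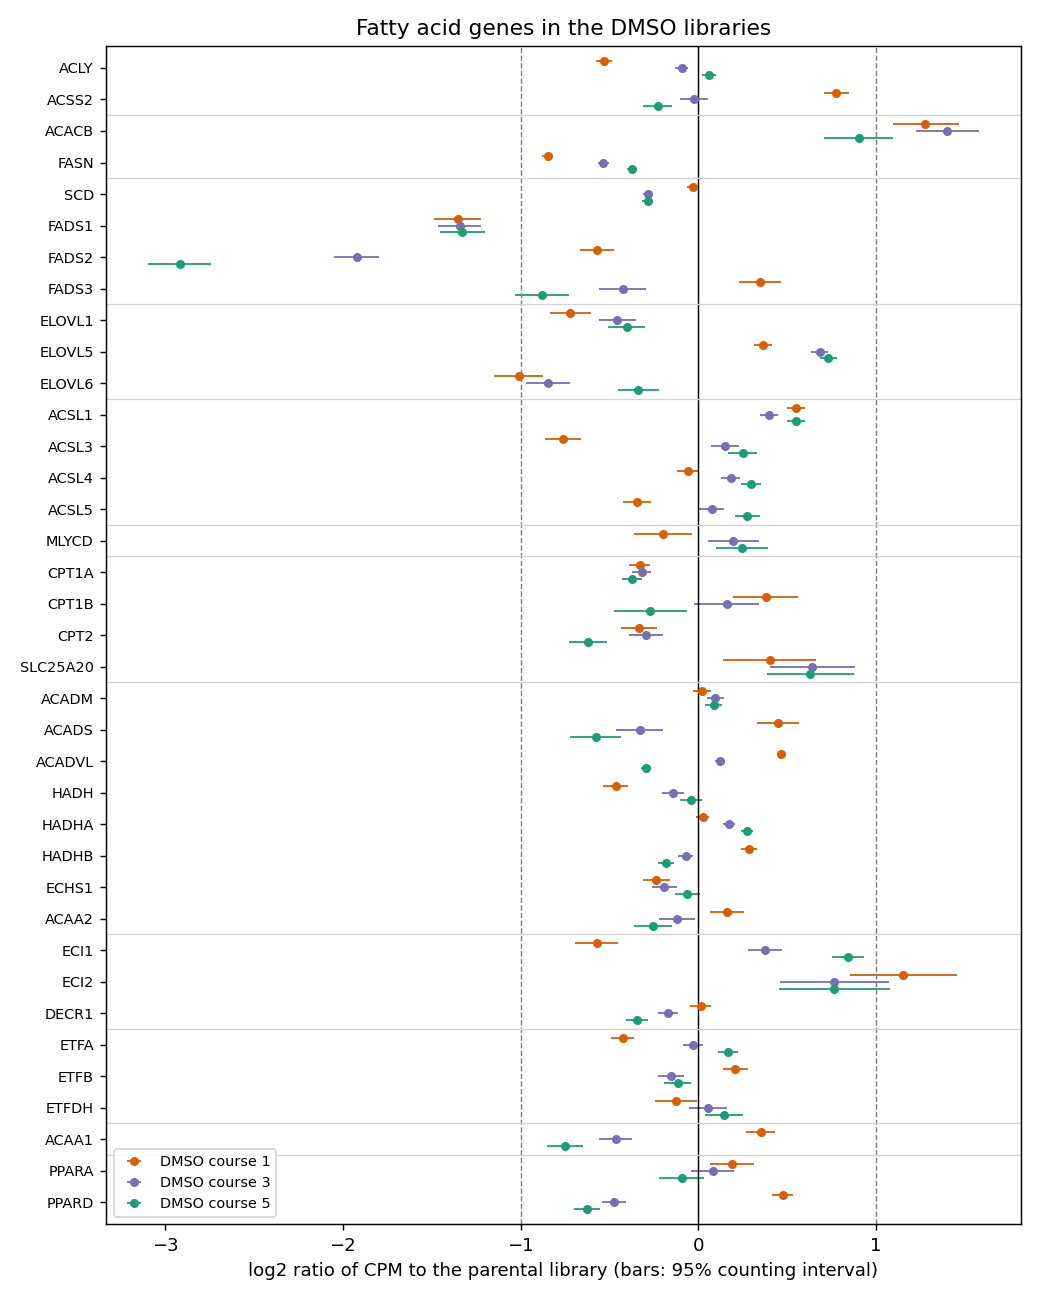
Log2 ratio of CPM to the parental library (horizontal axis) for the 37 members with a mean of at least 1 CPM, grouped by role from top to bottom. Points are single libraries, bars are 95% counting intervals, and dashed lines mark 2-fold; FADS2 in course 5 is the point farthest from 0, at -2.92.

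Desaturases put double bonds into acyl chains. SCD makes oleate from stearate at the delta-9 position, FADS2 takes the delta-6 step and FADS1 the delta-5 step of polyunsaturated fatty acid synthesis, and FADS3 is their neighbour on chromosome 11. Because the 3 FADS genes are paralogs, their coding sequences were compared first. FADS1 and FADS2 were identical at 69.4% of aligned coding bases, FADS1 and FADS3 at 69.1%, and FADS2 and FADS3 at 71.8%, and the longest run shared by any pair was 26 bases. The 26-base run is shared by FADS2 and FADS3. The lines below show another stretch, the one that holds the longest runs FADS1 shares with FADS2 (20 bases) and with FADS3 (17 bases). It spans 80 coding bases across the junction of exons 10 and 11 in the transcript used for each gene (GENCODE release 29, GRCh38, 5′ to 3′ on the coding strand). It covers a conserved histidine box of the family. Capitals mark the 58 bases that are the same in all 3 genes.
FADS1, minus strand, chr11:61803032-61803102 and chr11:61802918-61802926: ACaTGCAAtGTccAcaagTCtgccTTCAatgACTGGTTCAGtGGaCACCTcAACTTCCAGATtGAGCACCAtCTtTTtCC
FADS2, plus strand, chr11:61863716-61863786 and chr11:61865152-61865160: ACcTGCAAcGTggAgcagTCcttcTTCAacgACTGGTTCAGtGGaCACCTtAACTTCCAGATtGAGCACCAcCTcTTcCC
FADS3, minus strand, chr11:61876111-61876181 and chr11:61875968-61875976: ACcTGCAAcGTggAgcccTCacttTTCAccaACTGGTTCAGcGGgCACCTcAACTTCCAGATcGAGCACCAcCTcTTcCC

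FADS2 (ENSG00000134824) stood at 47.7, 32.1, 12.6 and 6.32 CPM, from 2822, 1384, 632 and 288 counts. The 4 levels were in strict descending order with the number of courses. Relative to the parental cells, the log2 ratio of FADS2 was -0.57 after course 1 (95% counting interval -0.66 to -0.48), -1.92 in course 3 (-2.05 to -1.80) and -2.92 in course 5 (-3.10 to -2.74). In the fit of a slope over 0, 1, 3 and 5 courses, FADS2 had a slope of -0.59 log2 units per course (SE 0.05), lower at each step, with an edgeR quasi-likelihood adjusted p of 0.0808 over 18612 genes, which missed the threshold of 0.05. Its adjusted p in that fit was 0.0173 without the filter on low counts, 4.757e-14 with DESeq2 and 0.183 with limma-voom. Leaving out course 1 gave 0.0002098 and leaving out the parental library 0.001172, while leaving out course 3 or course 5 gave 0.0824 and 0.462.

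FADS1 (ENSG00000149485) had another shape: 36.5 CPM in the parental library and 14.3, 14.4 and 14.5 CPM in the DMSO libraries. The 3 DMSO levels lay within counting error of each other, and the parental level was far above all of them. Against the parental library the log2 ratios were -1.35 (-1.49 to -1.22), -1.34 (-1.47 to -1.22) and -1.33 (-1.46 to -1.20). Pooling the 3 DMSO libraries against the parental library gave a log2 fold change of -1.34 (SE 0.22), lower in 3 of 3 libraries, with an edgeR adjusted p of 0.418; DESeq2 gave 0.005866. FADS1 passed in the edgeR pooled fit without course 1, at an adjusted p of 0.001266, and so did FADS2 (0.0009526), ACACB and ELOVL5 (4 of 38 members, against 8.59% of all genes). Without course 3 or course 5 no member passed, and the adjusted p of FADS1 was 1 and 0.585. In each such fit the lone parental library is assumed to vary like the others. Any fit with 1 library left out, for FADS1 or another member, has 1 residual degree of freedom. Without course 1, the spread within the DMSO group comes from courses 3 and 5 alone.

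FADS3 levels were 20.2, 25.8, 15.1 and 11 CPM. Course 1 lay above the parental library (log2 ratio 0.35, interval 0.23 to 0.47) and course 5 below it (-0.88, -1.03 to -0.73). SCD, by far the most abundant of the desaturases, was at 378, 369, 311 and 310.2 CPM, a spread of 0.29 log2 units. Per kilobase of exon, the parental library held 70.5 RPKM of SCD against 4.33, 3.57 and 3.22 RPKM of FADS2, FADS1 and FADS3. In course 5 the order by RPKM within the FADS cluster was turned round, with FADS3 at 1.75, FADS1 at 1.42 and FADS2 at 0.573 RPKM. By CPM, FADS1 (14.5) stayed above FADS3 (11) in course 5, and FADS2 (6.32) was lowest. By either measure, FADS2 had the highest level of the 3 in the parental cells and the lowest in course 5. Over the 4 desaturases, 3 were below the parental level in course 1 and all 4 in courses 3 and 5, with median log2 ratios of -0.30, -0.88 and -1.11.

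**Figure D2:**
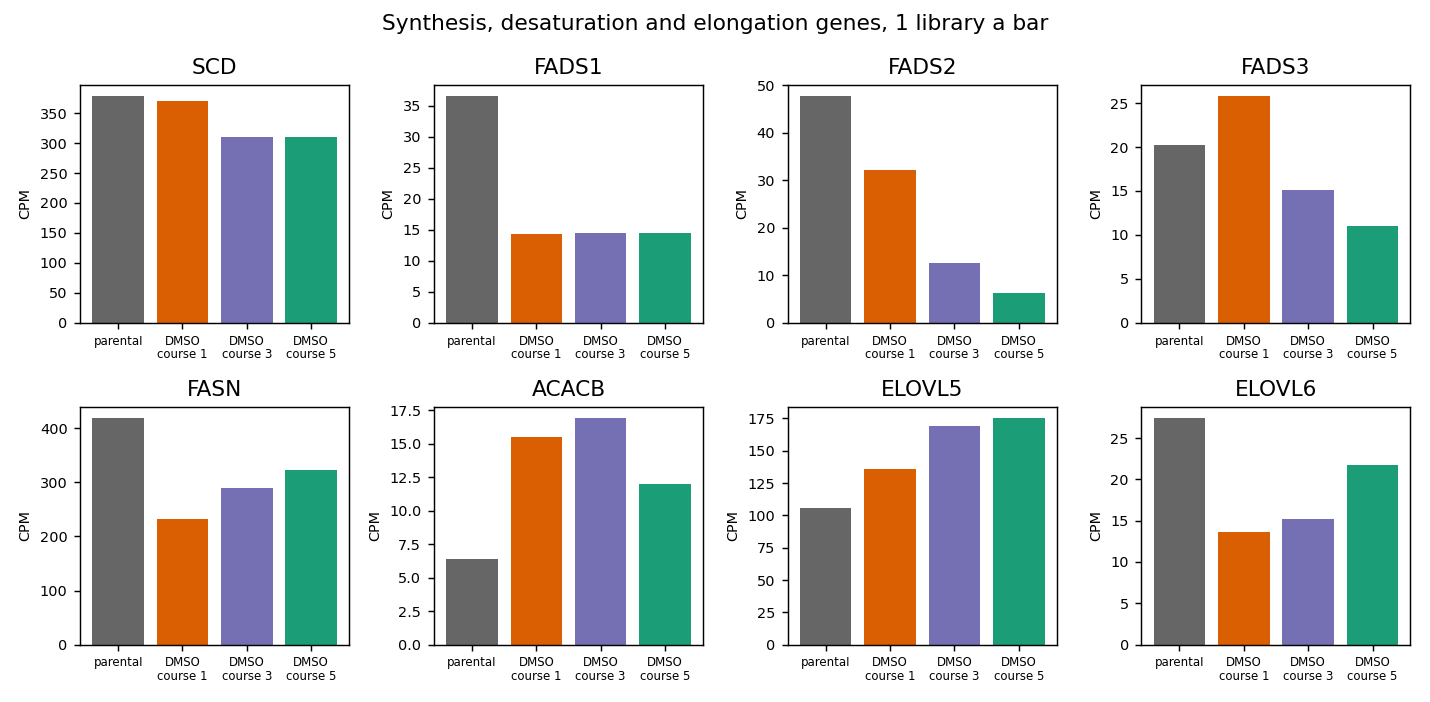
Level in CPM (vertical axes, each from 0) of 8 synthesis, desaturation and elongation genes in the parental library and DMSO courses 1, 3 and 5, with 1 library per bar. FADS2 descends from 47.7 to 6.32 CPM, FADS1 is at 14.3 to 14.5 CPM in all 3 DMSO libraries, and FASN is lowest in course 1.

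Genes whose profile over the 4 libraries was most like that of FADS2 were found by Euclidean distance between centred log2 CPM values. The nearest of all those tested was PLIN4, which encodes a perilipin that coats lipid droplets, at 3.31, 2.28, 0.876 and 0.461 CPM and a distance of 0.075. VWA5A (12.2, 7.87, 3.44 and 1.71 CPM, distance 0.134) and CUEDC1 (8.89, 5.22, 2.37 and 1.10 CPM, distance 0.170) were also among the 5 nearest, with AC122710.2 and the keratin pseudogene KRT18P17 under 0.4 CPM. With 4 libraries, this likeness is a description only.

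Acetyl-CoA supply showed 2 genes with opposite first steps. ACLY, which cleaves citrate to acetyl-CoA, was at 206, 142, 193 and 215 CPM, lowest in course 1. ACSS2, which makes acetyl-CoA from acetate, was at 50.3, 86.1, 49.4 and 42.9 CPM, highest in course 1. The log2 ratio of course 1 to the parental library was -0.53 (-0.58 to -0.49) for ACLY and 0.78 (0.71 to 0.85) for ACSS2.

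For palmitate synthesis, FASN, the fatty acid synthase, was at 419, 233, 289 and 323 CPM. All 3 DMSO libraries lay below the parental one, the nearest being course 5 at a log2 ratio of -0.37 (-0.40 to -0.34). ACACB, the acetyl-CoA carboxylase of the mitochondrial surface, whose malonyl-CoA restrains carnitine palmitoyltransferase, was at 6.41, 15.5, 16.9 and 12 CPM. It was above the parental level in each DMSO library, with log2 ratios of 1.28 (1.09 to 1.46), 1.40 (1.22 to 1.58) and 0.90 (0.71 to 1.09). Its pooled log2 fold change was 1.21 (SE 0.35), with an edgeR adjusted p of 0.750; without course 1 it was 1.17 with an adjusted p of 0.0254, and without course 3 or course 5 the adjusted p was 1 and 0.889.

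ACACA, the cytosolic acetyl-CoA carboxylase that supplies FASN, had only 25, 10, 15 and 19 counts (0.422, 0.232, 0.299 and 0.417 CPM). These counts cannot be read as a level of expression. All 12 of its nearest protein-coding genes, 6 on either side on chromosome 17, also had a mean under 2 CPM, and 6 of the 12, AATF and DUSP14 among them, had 0 counts in all 4 libraries. Among the other 38 members the highest number of such low neighbours was 8 of 12. Of 19622 windows of 13 consecutive protein-coding genes, 3.38% were entirely under 2 CPM, where 46.8% of all protein-coding genes were. The cause was not tested, and ACACA is given no ratio here.

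Elongases add 2-carbon units to acyl-CoA. ELOVL6, which extends palmitate to stearate, was at 27.4, 13.6, 15.3 and 21.7 CPM, with all 3 DMSO libraries below the parental one and course 5 nearest to it. ELOVL1, which acts on very long saturated chains, was at 33.6, 20.4, 24.5 and 25.4 CPM. ELOVL5, which extends polyunsaturated chains made by the FADS enzymes, was at 106, 136, 169 and 175 CPM. FASN, ELOVL1 and ELOVL6 thus shared an order, highest in the parental library and lowest in course 1. HADH and ECHS1 of the oxidation arm had the same order. ELOVL5 instead was above the parental level in 3 of 3 libraries. Its slope over courses was 0.14 log2 units per course (SE 0.05, edgeR adjusted p 0.279, or 0.0264, 0.811, 0.9999 and 0.224 without course 1, course 3, course 5 or the parental library). ELOVL7 was near its detection limit, at 7, 7, 10 and 4 counts.

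Activation by acyl-CoA synthetases precedes both storage and oxidation. ACSL1 was at 105, 154, 138 and 154 CPM, above the parental level in each DMSO library. ACSL3, a synthetase of the endoplasmic reticulum and lipid droplets, was at 43.3, 25.6, 48.1 and 51.5 CPM and was lowest in course 1. ACSL4, which prefers arachidonate, was at 91.1, 87.5, 103 and 112 CPM. ACSL5 was at 58.2, 45.8, 61.2 and 70.4 CPM. All 4 synthetases were above the parental level in courses 3 and 5, with medians of 0.17 and 0.28 log2 units, but in course 3 that of ACSL5 (0.07) turned negative when total counts were used for scaling. MLYCD, which breaks malonyl-CoA down, was at 13.8, 12, 15.8 and 16.3 CPM.

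The carnitine shuttle carries long chains into mitochondria. CPT1A, the rate-limiting entry step, was at 109, 86.7, 87.4 and 84.3 CPM, lower than parental by about the same amount in all 3 DMSO libraries (log2 ratios -0.33, -0.32 and -0.37). CPT2, its partner on the inner membrane, was at 37.2, 29.5, 30.3 and 24.2 CPM. SLC25A20, the carnitine-acylcarnitine carrier, was at 4.31, 5.69, 6.71 and 6.67 CPM, above the parental level throughout. CPT1B, the muscle form, was at 8.47, 11, 9.46 and 7.02 CPM, but 66.36% of its exon bases also belong to the readthrough gene CHKB-CPT1B, so its counts are uncertain.

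Mitochondrial beta-oxidation opens with chain-length-specific dehydrogenases. ACADVL, for very long chains, was at 418, 577, 454 and 341 CPM and was the member with the highest level per kilobase in every library (70.1 to 119 RPKM). ACADM, for medium chains, was at 128, 130, 137 and 136 CPM, a spread of 0.09 log2 units, the narrowest of the 39 members. ACADS, for short chains, was at 19.8, 26.9, 15.7 and 13.2 CPM. ACADVL and ACADS were both highest in course 1 and lowest in course 5, but course 3 lay above the parental level for ACADVL and below it for ACADS.

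Genes of the later steps of the spiral each spanned 0.24 to 0.47 log2 units over the 4 libraries. HADHA and HADHB encode the alpha and beta subunits of the trifunctional protein. HADHA was at 247, 251, 278 and 298 CPM, and HADHB was at 157, 191, 149 and 138 CPM. The log2 ratios to the parental library differed in sign between the subunits in courses 3 (0.17 and -0.07) and 5 (0.27 and -0.18). HADH, the short-chain hydroxyacyl-CoA dehydrogenase, was at 81.5, 59.0, 73.9 and 79.0 CPM. ECHS1, the short-chain hydratase, was at 62.0, 52.6, 54.3 and 59.4 CPM. ACAA2, the mitochondrial thiolase, was at 32.0, 35.7, 29.4 and 26.8 CPM.

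Unsaturated chains need isomerases and a reductase before they can be shortened. ECI1, a mitochondrial enoyl-CoA isomerase, was at 28.3, 19.0, 36.7 and 50.7 CPM. Course 1 was the lowest library for ECI1 and course 5 the highest, with log2 ratios to the parental library of -0.57 (-0.70 to -0.45) and 0.84 (0.75 to 0.93). Its slope over courses was 0.21 log2 units per course (SE 0.07, edgeR adjusted p 0.280, or 0.0141, 0.647, 0.9999 and 0.005756 without course 1, course 3, course 5 or the parental library). ECI2 was low, at 2.57, 5.71, 4.36 and 4.37 CPM, and DECR1, the dienoyl-CoA reductase, was at 92.0, 92.8, 81.7 and 72.5 CPM.

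Electrons from the dehydrogenases pass to the electron transfer flavoprotein and then to its ubiquinone oxidoreductase. ETFA and ETFB encode the 2 subunits of the flavoprotein. ETFA was at 94.9, 70.7, 92.8 and 106 CPM, lowest in course 1. ETFB was at 60.0, 69.3, 53.9 and 55.3 CPM, highest in course 1. ETFDH, the oxidoreductase, was at 25.2, 23.1, 26.1 and 27.8 CPM. ACAA1, the peroxisomal thiolase, was at 42.2, 53.9, 30.6 and 25.1 CPM. Its slope over courses was -0.20 log2 units per course (SE 0.07, edgeR adjusted p 0.266, or 0.0189, 0.740, 0.9999 and 0.0101 without course 1, course 3, course 5 or the parental library).

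PPARA and PPARD are nuclear receptors that bind fatty acids and switch on oxidation genes. PPARA was nearly flat, at 20.3, 23.1, 21.5 and 19.0 CPM. PPARD was at 76.8, 107, 55.3 and 49.8 CPM, above the parental level in course 1 (log2 ratio 0.47, interval 0.41 to 0.53) and below it in courses 3 (-0.47, -0.54 to -0.41) and 5 (-0.63, -0.70 to -0.55).

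Set side by side, the synthesis arm was lower than the oxidation arm in each DMSO library. For the 11 synthesis members at 1 CPM or more on average, the median log2 ratio to the parental cells was -0.53, -0.43 and -0.34 in courses 1, 3 and 5, with 7, 9 and 8 of 11 members below it. Over the 19 oxidation members it was 0.03, -0.07 and -0.12, with 7, 11 and 12 of 19 below. Across all 13589 genes at this level it was 0.02, 0.01 and 0.02, with 6615, 6634 and 6599 genes below the parental level. The difference between the arms was -0.56, -0.35 and -0.22. The order of the courses was turned round with means in place of medians (-0.28, -0.35 and -0.41), so no course is ranked. With 1 library per course, no test of this difference is available. Within the synthesis arm the ratios ran from -2.92 to 1.40, so the median hides ACACB and ELOVL5, which lay above the parental level throughout. Summed levels gave the same picture: 1331, 1088, 1111 and 1157 CPM for synthesis and 1649, 1790, 1651 and 1556 CPM for oxidation.

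**Figure D3:**
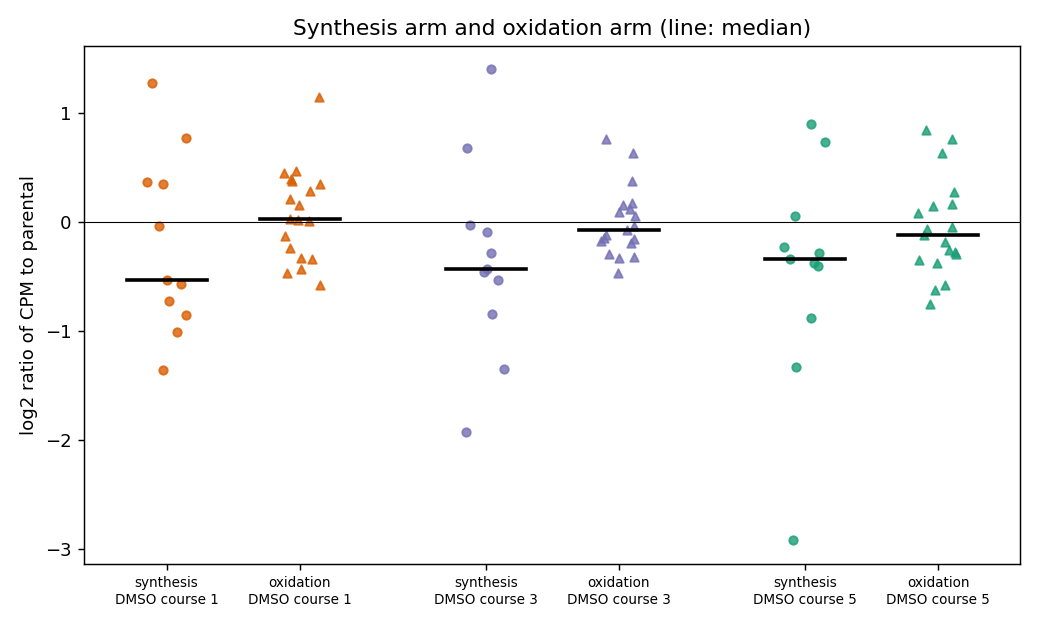
Log2 ratio of CPM to the parental library (vertical axis) for the 11 synthesis members (circles) and 19 oxidation members (triangles) in each DMSO course, 1 point per gene, with a black line at the median. The synthesis median is below the oxidation median in each course, by 0.56, 0.35 and 0.22 log2 units, and the points of the arms overlap.

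More members were apart between course 1 and course 5 (8) than between either and the parental cells (3 and 2). The same held across all genes. Against the parental library, 3.70% of genes were apart above and 4.19% below in course 1, and 2.96% and 4.92% in course 5. For course 5 against course 1, these shares were 7.14% and 9.08%. Of 36 members, 2 were apart above in course 5 (ECI1 and ACSL3, against 7.14% of all genes), and 6 were apart below: FADS2, FADS3, ACAA1, PPARD, ACADS and ACSS2. Those 6 are 16.7% of the 36, against 9.08% of all genes. Scaled by total counts, ACADS (-0.95) and ACSS2 (-0.93) were under 2-fold and 4 were left, and without mitochondrially encoded genes ACSL3 (0.998) was under it. The log2 ratio of course 5 to course 1 was -2.35 (-2.53 to -2.16) for FADS2, whose course 5 level was the lower in both comparisons. For ECI1 it was 1.41 (1.30 to 1.53).

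Sorted by direction alone, 10 of 37 members were below the parental level in all 3 DMSO libraries: FADS1, FADS2, SCD, FASN, ELOVL1, ELOVL6, CPT1A, CPT2, HADH and ECHS1. That is 27.0%, against 23.0% of 13589 genes. Above it in all 3 were 7 of 37 (ACACB, ELOVL5, ACSL1, SLC25A20, ACADM, HADHA and ECI2), or 18.9% against 25.9%. Scaled by total counts, or without mitochondrially encoded genes, ACADM and HADHA turned below in course 1. ACADM also turned below in course 5 without mitochondrially encoded genes. A further 12 of 37 (32.4%, background 23.4%) were above in course 1 and below in course 5. They were ACSS2, FADS3, CPT1B, ACADS, ACADVL, HADHB, ACAA2, DECR1, ETFB, ACAA1, PPARA and PPARD. The opposite course, below in course 1 and above in course 5, was taken by 8 of 37 (21.6%, background 23.6%): ACLY, ACSL3, ACSL4, ACSL5, MLYCD, ECI1, ETFA and ETFDH. DECR1 turned below in course 1 with total counts and without mitochondrially encoded genes, and ACLY turned below in course 5 without them.

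**Figure D4:**
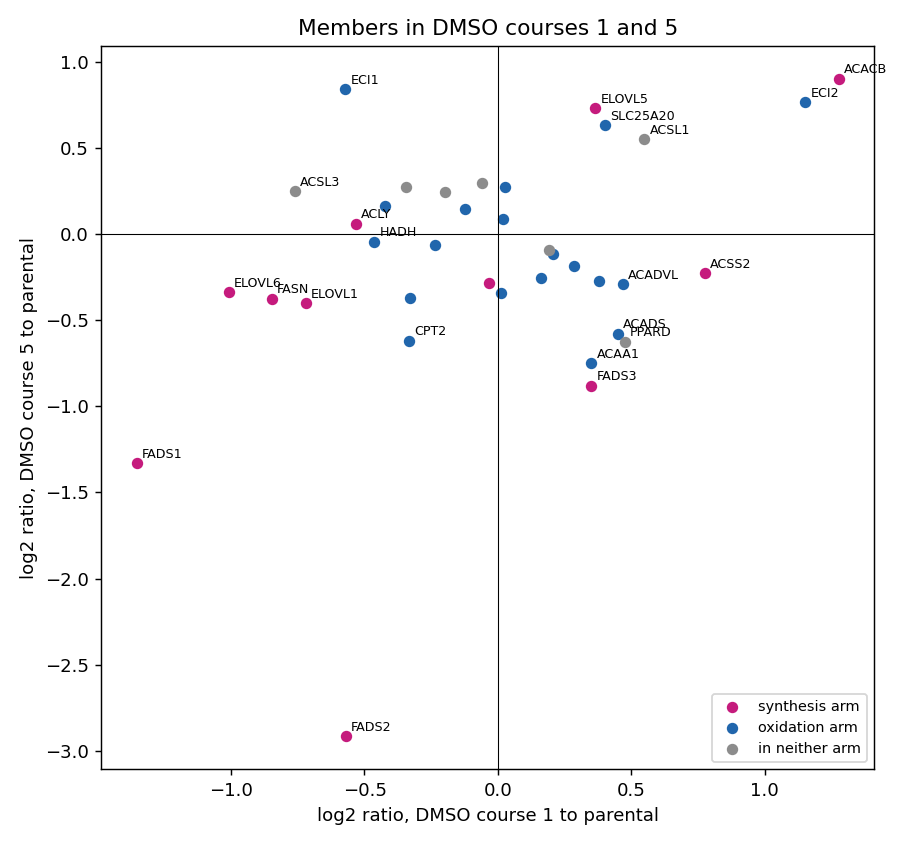
Log2 ratio to the parental library in DMSO course 1 (horizontal axis) against course 5 (vertical axis) for the 37 members with a mean of at least 1 CPM, coloured by arm, with the outer genes named. Both axes share the parental library. FADS1 and FADS2 lie lowest, while ECI1 lies in the upper left and FADS3, ACAA1, PPARD and ACADS in the lower right.

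Across all genes, 0% of 18612 genes passed in the pooled fit and 0% in the fit over courses with edgeR's quasi-likelihood test, and 0 of the 38 members tested passed in either. At an unadjusted p under 0.05 there were 1045 genes in the pooled fit, among them ACACB and FADS1, and 2940 in the fit over courses, among them FADS2, FADS3, ELOVL5, ECI1, ACAA1 and PPARD. Limma-voom also called 0 genes in both, and DESeq2 called 211 (1.13%) and 880 (4.73%), of which FADS1 and FADS2 respectively were the only members. Without the count filter 0.468% of genes passed over courses, FADS2 among them. Without course 1, 9 members of 38 passed in the fit over courses, against 15.2% of genes (FADS1, FADS2, FADS3, ELOVL5, ACSL1, CPT2, ECI1, ACAA1 and PPARD), and without the parental library 9 passed, against 23.4% of genes, which is near the share among members (FADS2, FADS3, ACSS2, ACSL3, ACADS, ACADVL, ECI1, ACAA1 and PPARD). Without course 3 or course 5 no member passed. Both fits have 2 residual degrees of freedom from libraries of different courses, or 1 with a library left out. Nothing in the labels makes these libraries replicate cultures. The p-values thus reflect only the spread among these 4 libraries, or among those left in a fit.

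A wider list of 63 genes of the same pathways was read beside the members, and 45 of them reached a mean of 5 CPM. In course 5, 4 were apart above the parental level (PPARG, SLC22A5, SLC27A2 and PECR) and 4 below it (MLXIPL, INSIG1, NR1H3 and SLC27A1), against 2.96% and 4.92% of all genes. Course 1 had 1 in each direction (PPARG above, SLC27A4 below; background 3.70% and 4.19%), and course 3 had 2 above (PPARG and SLC22A5) and 1 below (MLXIPL; background 2.23% and 2.34%). None of the 54 genes tested passed in either fit. THRSP, ACADL and DECR2 were at 0 counts in all 4 libraries, and whether this reflects absent expression was not tested.

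Among regulators of synthesis, MLXIPL, which encodes the glucose-responsive factor ChREBP, was at 47.7, 61.6, 17.4 and 11.3 CPM. INSIG1, which holds the SREBP precursors in the endoplasmic reticulum and is itself an SREBP target, was at 99.4, 151, 51 and 35.4 CPM. Both were highest in course 1 and lowest in course 5. SREBF1, the gene of the factor that drives FASN and SCD, was at 254, 209, 228 and 201 CPM, and SREBF2 was at 294, 412, 312 and 277 CPM.

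Fatty acid and carnitine uptake genes had no common profile. SLC27A4, a fatty acid transport protein gene, was at 20.4, 4.32, 16.9 and 23.5 CPM, low in course 1 alone, and its relative SLC27A1 was at 82.3, 144, 58.1 and 39.6 CPM. SLC22A5, the plasma membrane carnitine transporter, was at 6.22, 8.80, 17.7 and 21.2 CPM, in ascending order with courses. PPARG, the fat-cell receptor, was in the same order at 5.46, 11.1, 16.2 and 20.6 CPM.

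The median of the peroxisomal genes of the wider list, though not every gene, lay on the other side of the parental level from ACAA1 in courses 3 and 5. For the 12 of 14 that averaged 1 CPM or more, the median log2 ratio was 0.04, 0.21 and 0.25 in courses 1, 3 and 5, with 6, 9 and 10 of 12 above. Of all 13589 genes at this level, 6974, 6955 and 6990 were above. PECR, the peroxisomal trans-enoyl-CoA reductase, was at 8.18, 16.1, 15.4 and 16.4 CPM. PHYH, which starts alpha-oxidation of phytanate, was at 14.4, 12.7, 23.4 and 25.5 CPM. The synthesis carriers and partner enzymes (10 of 13 measured) had medians of -0.34, -0.16 and -0.14.

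Promoters were searched for motifs of factors known to act on such genes, in the 250 bases before each RefSeq start (GRCh38.p14, 34 of 39 members matched), on both strands. The sterol response element TCACNCCAC, bound by SREBP, was found in ACSL1 alone, and in 0.883% of 35116 windows of the same length. The E-box CACGTG was found in ELOVL5 alone (6.34% of windows), the nuclear receptor motif AGGTCA in ACACA, ELOVL6 and ACSL5 (12.1%), and the CCAAT box in 16 members (32.0%). These percentages are per window, while a member was counted when any of its windows matched. Members with several starts had more chances of a match, so the counts are not compared with the percentages. A match is a description of letters and not of binding. The windows of FADS2 may not include its main start, so nothing is read from them. FASN, CPT1B, DECR1, ETFDH and ACAA1 were not matched. Stretches with the 2 rarest motifs are printed below, and capitals mark the motif, on the strand of the gene. They lie 250 to 151 bases before the start for ACSL1, in its window 3 alone, and 241 to 142 for ELOVL5. For FADS1, which had no match, the 100 bases next to the start are printed, so the stretches are not the same region. A link between motifs and levels was not tested.
ACSL1, minus strand, chr4:184805704-184805803, sterol response element in reverse: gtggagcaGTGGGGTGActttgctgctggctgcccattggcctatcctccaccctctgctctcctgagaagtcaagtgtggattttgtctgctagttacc
ELOVL5, minus strand, chr6:53349092-53349191, E-box: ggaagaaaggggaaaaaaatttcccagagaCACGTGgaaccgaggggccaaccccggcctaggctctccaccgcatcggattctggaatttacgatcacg
FADS1, minus strand, chr11:61817004-61817103, no match: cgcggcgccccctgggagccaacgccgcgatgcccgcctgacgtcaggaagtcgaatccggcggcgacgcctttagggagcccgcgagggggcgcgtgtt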

How the data were processed

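Bulk RNA of 4 MOLM-13 libraries was sequenced with a TruSeq RNA kit, per the labels' protocols. The authors deposited raw read counts per Ensembl gene with 5 HTSeq summary rows, which were left out (24.57% to 29.81% of reads). The submitters' processing notes name hg19 as the build, and HTSeq 0.6p1, TopHat2 2.0.11 and FastQC 0.11.5 as tools. The identifiers are those of GENCODE release 29, on GRCh38, which leaves the build used for counting unsettled; coordinates printed are those of the reference sequences, not of reads. Parental replicate 1 and the 3 busulfan samples were not analysed here.

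CPM used TMM library sizes; RPKM divided it by union exon length. The pooled comparison and the slope over courses were fitted with edgeR 4.0.16 in R 4.3.3 (quasi-likelihood test, filterByExpr minimum count 10 and total 15, Benjamini-Hochberg adjusted p under 0.05), with limma 3.58.1 and DESeq2 1.42.0 as alternatives. Single libraries were compared by CPM ratio with exact binomial 95% intervals and no test. A count of 0 was floored at 3 counts per library. No pair of libraries agreed within counting noise (chi-square per degree of freedom 84 to 292).

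The members and lists were chosen with earlier results of these data known. All members are named; ratios are detailed for up to 10 that were apart in any comparison, with up to 6 other pathway genes of widest range (mean of at least 5 CPM) and the 5 genes most like the widest-ranging member. Further genes named in passing were chosen after their values were seen. The functions were tested on simulated data. Some listed genes are not reported here.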

Additional observations from a re-analysis of the deposited data

Results flagged for a closer look

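For 7 members the level lay on opposite sides of the parental library in course 1 and course 5, with at least a 2-fold difference between those libraries. Each course is 1 library and the difference was not tested. The log2 ratio of course 5 to course 1 was -1.23 for the desaturase gene FADS3, -1.10 for the peroxisomal thiolase gene ACAA1, -1.10 for the receptor gene PPARD, -1.03 for the short-chain dehydrogenase gene ACADS and -1.004 for the acetyl-CoA synthetase gene ACSS2. It was 1.01 for the acyl-CoA synthetase gene ACSL3 and 1.41 for the isomerase gene ECI1. Scaled by total counts, ACSS2 (-0.93) and ACADS (-0.95) were under 2-fold, and ACSL3 was under it without mitochondrially encoded genes (0.998).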

How the results depend on the processing

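Calls across all genes depended on the tool, the filter and the libraries. The pooled fit called 0 genes, against 13 without the count filter, 211 with DESeq2 and 25 to 1578 with 1 DMSO library left out (highest without course 1). The fit over courses called 0, against 134 without the filter, 880 with DESeq2 and 5 to 3642 with 1 library left out (lowest without course 5, highest without the parental library). At 1.5-fold in place of 2-fold, 7, 6 and 10 members were apart from the parental library in courses 1, 3 and 5 (3, 3 and 2 at 2-fold), and 14 between courses 5 and 1 (8 at 2-fold). The synthesis arm stayed below the oxidation arm under each alternative run. The difference was -0.28 in course 1 and -0.41 in course 5 with means, -0.31 in course 1 without elongases, and -0.16 in course 3 at a mean of at least 20 CPM. With MLYCD and the acyl-CoA synthetases counted as oxidation it was -0.49 in course 3 and -0.36 in course 5. Scaling by total counts moved all log2 ratios by -0.11, -0.08 and -0.04 in courses 1, 3 and 5, and leaving out mitochondrially encoded genes moved them by -0.10, -0.05 and -0.11; ACADM, HADHA and DECR1 changed side in course 1 under both, ACSL5 and ETFDH in course 3 under total counts, and ACLY and ACADM in course 5 without mitochondrial genes. The causes were not tested. No paired analysis was possible because each group has 1 library. At 4 to 10 counts, ELOVL7 was too low for a ratio.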
